A study of Rattus norvegicus with 8 samples.

Results

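The nuclear receptor PPARA and 8 of its textbook target genes were followed in adult rat liver, namely Cyp4a1, Cyp4a2, Cyp4a3, Ehhadh, Acot1, Pdk4, Angptl4 and Fgf21. These 9 genes were chosen by name, from 15154 genes that had a named probe on the array, and each was represented by the 1 probe whose RefSeq transcript maps to its symbol. The study measured liver RNA of male Sprague-Dawley rats aged 78 to 86 days on 8 Agilent two-colour arrays of 1 slide. Control offspring (4 arrays) came from dams that received corn oil. AhR offspring (4 arrays) came from dams given, in corn oil, a mixture of agonists of the aryl hydrocarbon receptor (non-ortho-PCBs, dibenzodioxins and dibenzofurans) at 1.8 ng of dioxin toxic equivalents per kg per day. Exposure of the dams ran from gestation day 0 to postnatal day 20, weeks before the livers of the offspring were taken, and neither group was cross-fostered. The arrays do not measure whether these livers still held any of the mixture. Each array held a random pool of RNA from 2 rats of a group, labelled with Cy5, against a common reference labelled with Cy3 and drawn from 14 rat cell lines, with no dye swap. Whether pools held littermates is not given in the labels, so p-values speak only to the variation among these pools. Every value below is the log2 ratio of liver Cy5 over reference Cy3 unless a sentence says otherwise, and every group difference is AhR minus control on that scale.

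PPARA is a fatty acid-activated nuclear receptor that pairs with RXR and binds direct repeats of a hexamer in its target genes. In liver it raises the enzymes that break fatty acids down, both during fasting and in response to fibrate drugs and peroxisome proliferators, to which rodents respond strongly. Its targets lie in several compartments. Microsomal CYP4A enzymes oxidise the omega end of fatty acids, peroxisomal enzymes shorten very long chains and the dicarboxylic acids that omega oxidation makes, and secreted or mitochondrial targets such as Fgf21, Angptl4 and Pdk4 spare glucose and move lipid in the fasted state.

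Sequences upstream of the transcription start are shown for 4 members, since Cyp4a2 and Cyp4a3 are near copies whose values were compared over the arrays, and Pdk4 and Fgf21 stand for the fasting-linked targets. They were read from RefSeq's promoter table (GRCr8), which matched 8 of the 9 members. Cyp4a1 was not matched, and those of Ppara and Angptl4 lie inside the annotated span of their own gene and are not printed. Each runs 5′ to 3′ on the gene's strand and ends at the base before the start, except that of Cyp4a3, which covers positions -250 to -33. Capitals mark the nuclear receptor hexamer AGGTCA, in Fgf21 the E-box CACGTG and, further along its window, the core promoter element TATAAA. The windows are chr5:134170909-134171158 (Cyp4a2), chr5:134352269-134352486 (Cyp4a3), chr4:34568330-34568579 (Pdk4) and chr1:105221377-105221626 (Fgf21), all on the minus strand.
Cyp4a2: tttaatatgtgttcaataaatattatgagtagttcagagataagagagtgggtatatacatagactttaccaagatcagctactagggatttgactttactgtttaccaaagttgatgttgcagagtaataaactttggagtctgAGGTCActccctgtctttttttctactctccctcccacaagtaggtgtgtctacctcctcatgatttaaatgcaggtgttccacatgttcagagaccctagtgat
Cyp4a3: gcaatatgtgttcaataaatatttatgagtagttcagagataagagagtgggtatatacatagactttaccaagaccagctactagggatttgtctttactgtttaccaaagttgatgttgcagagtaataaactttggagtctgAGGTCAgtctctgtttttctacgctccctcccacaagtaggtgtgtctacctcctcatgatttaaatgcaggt
Pdk4: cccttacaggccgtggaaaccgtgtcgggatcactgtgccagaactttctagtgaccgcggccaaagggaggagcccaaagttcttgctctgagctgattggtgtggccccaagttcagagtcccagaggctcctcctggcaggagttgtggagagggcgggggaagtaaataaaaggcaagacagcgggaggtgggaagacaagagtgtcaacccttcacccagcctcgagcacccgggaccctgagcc
Fgf21: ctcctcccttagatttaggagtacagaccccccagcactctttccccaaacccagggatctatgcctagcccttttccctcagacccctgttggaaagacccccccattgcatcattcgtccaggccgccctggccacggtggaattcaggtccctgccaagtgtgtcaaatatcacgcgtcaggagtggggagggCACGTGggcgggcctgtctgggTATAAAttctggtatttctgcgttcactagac

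The Cyp4a2 and Cyp4a3 windows were near copies: 210 of 222 aligned columns were identical (94.6%), with 7 mismatches and 5 gap columns. Both held AGGTCA at positions -105 to -100. The Fgf21 window held CACGTG at -54 to -49 and TATAAA at -32 to -27, and the Pdk4 window held none of the 5 motifs searched. Motifs were searched on both strands from 250 bases before to 50 bases after the start in 33469 RefSeq promoters. AGGTCA was found in 16.2% of them and in 2 of the 8 members, Cyp4a2 and Cyp4a3. The direct repeat of AGGTCA spaced by 1 base of any kind, with up to 2 mismatches, which overlaps the single AGGTCA, was found in 3.77% and in 0 members. TTANGTAA, the element of PAR bZIP factors such as DBP, was found in 2.24% and in 0 members. CACGTG was found in 6.42% and in Fgf21, and TATAAA in 14.2% and in Fgf21 and Angptl4. A match describes letters in a window, and its absence says only that these letters are not there.

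None of the 9 members passed an adjusted p of 0.05 between the groups (limma with Benjamini-Hochberg adjustment over 17855 probes), and 0% of all probes did. All 9 probes were well above background in Cy5 and in Cy3 on all 8 arrays and passed the filter on dim probes. Means were higher in AhR for 5 of 9 members, and lower for 4, against 47.7% higher and 52.3% lower among all probes (63.2% higher when arrays were centred on their median). The control and AhR arrays overlapped for each of the 9 members, where 1.19% of all probes did not overlap. In the reported fit Cyp4a2 alone reached a difference of 1.5-fold, as 0.302% of all probes did. It alone had an unadjusted limma p below 0.05, as 1.61% of all probes did. Adjusted p was 1.00 for every member, so no difference below is called against the spread between pools. In whole liver, fewer cells of a type and less RNA per cell cannot be told apart.

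Ppara itself, the receptor, stood at 0.09, -0.23, -0.35 and 0.19 on control arrays 1 to 4 and at 0.29, 0.27, -0.29 and -0.15 on AhR arrays 1 to 4. Each group held a pair of arrays above the reference and a pair below it, with AhR arrays 1 and 2 the highest of all. The control mean was -0.07 ± 0.25 (SD, n = 4) and the AhR mean 0.03 ± 0.29 (SD, n = 4). The difference was 0.10 (SE 0.16, 95% interval -0.26 to 0.47, exact permutation p = 0.543, two-sided). Over all arrays liver and reference gave nearly the same signal for this probe, with a mean log2 Cy5 of 8.37 and Cy3 of 8.40.

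The microsomal targets were the 3 CYP4A fatty acid omega-hydroxylases. Cyp4a2 stood at 0.77, -0.05, -0.17 and 0.23 on control arrays 1 to 4 and at 1.21, 0.46, 0.37 and 1.51 on AhR arrays 1 to 4. The AhR arrays 1 and 4 lay above every control, but control 1 lay above the other AhR arrays. The control mean was 0.19 ± 0.42 (SD, n = 4) against 0.89 ± 0.56 (SD, n = 4) for AhR. The difference of 0.69 (SE 0.27, 95% interval 0.09 to 1.30) had an unadjusted limma p of 0.0287 over n = 4 against 4, an adjusted p of 1.00 and an exact permutation p of 0.114. It was 0.68 within slide row 1 and 0.70 within slide row 2, each of which held 2 arrays per group. From Cy5 alone the difference was 0.53 and without AhR array 4 it was 0.48, both below 1.5-fold, while without control array 1 it was 0.88. On AhR arrays 1 and 4 the liver log2 Cy5 of this probe was highest (16.93 and 17.18) and the reference log2 Cy3 lowest (15.73 and 15.68).

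Cyp4a3, its close relative, stood at 0.93, -0.17, -0.36 and -0.22 on control arrays 1 to 4 and at 0.49, -0.22, -0.02 and 1.24 on AhR arrays 1 to 4. The same 3 arrays that were highest for Cyp4a2 (AhR 4, AhR 1 and control 1) were highest here. Means were 0.05 ± 0.59 (SD, n = 4) and 0.37 ± 0.65 (SD, n = 4). The difference was 0.32 (SE 0.34, 95% interval -0.43 to 1.07, exact permutation p = 0.514). It was 0.62 without control array 1 and 0.036 without AhR array 4. Since Cyp4a2 and Cyp4a3 are close copies, how far their probes read each other's transcript was not tested.

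Cyp4a1 stood at 0.11, 0.12, -0.04 and 0.85 on control arrays 1 to 4 and at 0.52, 0.11, 0.95 and 0.71 on AhR arrays 1 to 4. Its high arrays were AhR 3, control 4 and AhR 4, which differed from the high arrays of Cyp4a2 and Cyp4a3 in all but AhR 4. Means were 0.26 ± 0.40 (SD, n = 4) and 0.57 ± 0.36 (SD, n = 4). The difference was 0.31 (SE 0.22, 95% interval -0.17 to 0.79, exact permutation p = 0.314). The liver signal was above the reference on 7 of 8 arrays. Cyp4a8, a further gene of the family and no member here, had 2 probes whose differences had opposite signs, 0.13 and -0.32.

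**Figure D1:**
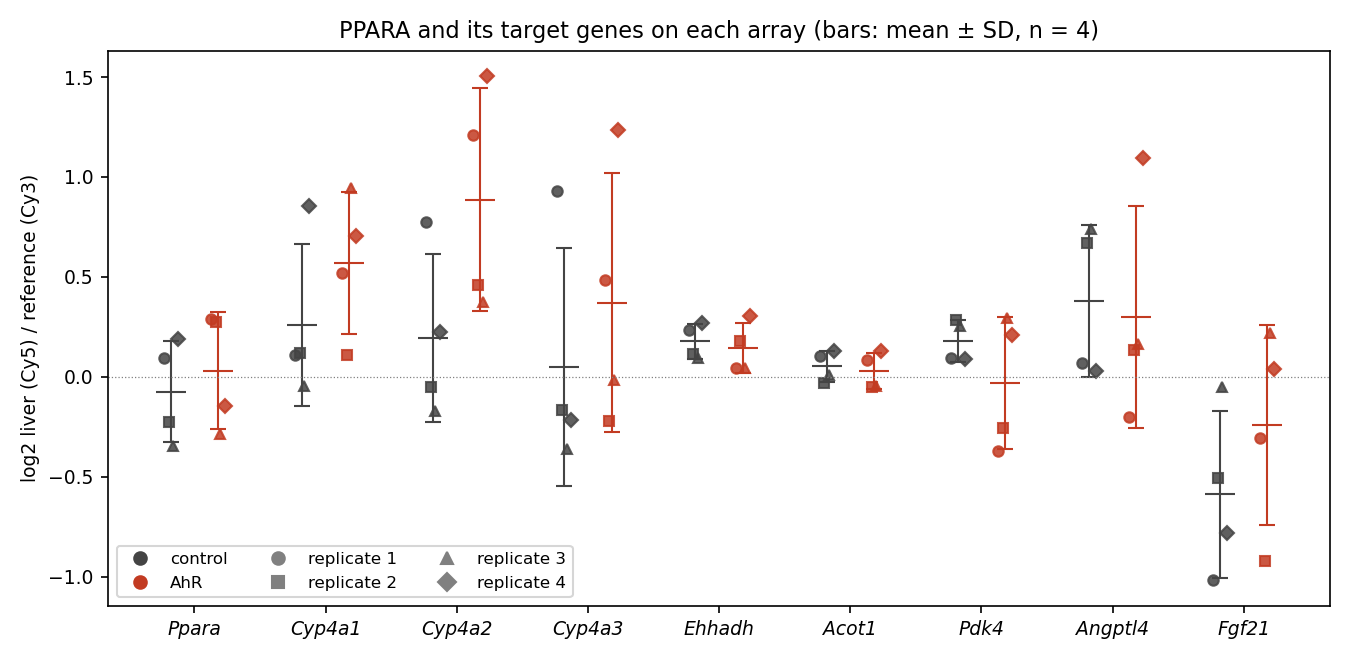
Log2 ratio of liver Cy5 over reference Cy3 for each of the 9 members on each of the 8 arrays, with control (grey) and AhR (red) arrays as points whose shape gives the replicate number, and bars for the group mean ± SD (n = 4). The groups overlap for every member, and Cyp4a2 shows the largest shift, from a mean of 0.19 in control to 0.89 in AhR.

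The peroxisomal target Ehhadh, the bifunctional enzyme that carries out the middle steps of peroxisomal beta oxidation, varied little. It stood at 0.23, 0.12, 0.09 and 0.27 on control arrays 1 to 4 and at 0.04, 0.18, 0.04 and 0.30 on AhR arrays 1 to 4. The lowest and highest arrays of all both belonged to AhR. Means were 0.18 ± 0.09 (SD, n = 4) and 0.14 ± 0.13 (SD, n = 4), which leaves AhR at -0.04 from control (SE 0.10, 95% interval -0.25 to 0.18, exact permutation p = 0.657). The sign turned under median centring, to 0.042. The difference was 0.08 within slide row 1 and -0.15 within slide row 2.

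Acot1, a thioesterase that releases fatty acids from acyl-CoA, stood at 0.10, -0.03, 0.01 and 0.13 on control arrays 1 to 4 and at 0.09, -0.05, -0.05 and 0.13 on AhR arrays 1 to 4. The arrays of both groups lay side by side. Means were 0.05 ± 0.08 (SD, n = 4) and 0.03 ± 0.09 (SD, n = 4), which leaves AhR at -0.02 from control (SE 0.09, 95% interval -0.22 to 0.18, exact permutation p = 0.629), and this sign turned under several settings. Its probe was dim, with a median Cy5 intensity of 101.8 to 126.3 over a local background of 71 to 76, and the offset added in background correction pulls the ratios of dim probes towards 0. Acot1 also has a close relative, Acot2, whose transcript may add to the signal.

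Of the fasting-linked targets, Fgf21, the hepatokine secreted in fasting, stood at -1.02, -0.50, -0.05 and -0.78 on control arrays 1 to 4 and at -0.31, -0.92, 0.22 and 0.04 on AhR arrays 1 to 4. AhR arrays 3 and 4 lay above every control, whereas AhR 2 lay below all controls but control 1. Means were -0.59 ± 0.42 (SD, n = 4) and -0.24 ± 0.50 (SD, n = 4). The difference was 0.35 (SE 0.26, 95% interval -0.22 to 0.92, exact permutation p = 0.314). It was 0.09 within slide row 1 and 0.60 within slide row 2. Its probe was dim in liver, at a median Cy5 intensity of 142.7 to 350.3, and with processed signals the difference was 0.55. On this probe the reference was the brighter channel, with a mean Cy3 signal 1.33-fold the Cy5 signal.

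Angptl4, a secreted inhibitor of lipoprotein lipase, stood at 0.07, 0.67, 0.74 and 0.03 on control arrays 1 to 4 and at -0.20, 0.14, 0.17 and 1.10 on AhR arrays 1 to 4. The 3 high arrays were AhR 4 and controls 3 and 2, and the other 5 lay between -0.20 and 0.17. Means were 0.38 ± 0.38 (SD, n = 4) and 0.30 ± 0.56 (SD, n = 4). The difference was -0.08 (SE 0.26, 95% interval -0.66 to 0.51, exact permutation p = 0.886), and it was 0.21 within slide row 1 and -0.37 within slide row 2. Its sign turned without control 2 (0.019), without control 3 (0.043) and without AhR 1 (0.089).

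Pdk4, the kinase that switches off pyruvate dehydrogenase and so spares glucose, stood at 0.09, 0.28, 0.25 and 0.09 on control arrays 1 to 4 and at -0.37, -0.26, 0.30 and 0.21 on AhR arrays 1 to 4. AhR arrays 1 and 2 were below every control and AhR 3 above every control. Means were 0.18 ± 0.10 (SD, n = 4) and -0.03 ± 0.33 (SD, n = 4). The difference was -0.21 (SE 0.15, 95% interval -0.55 to 0.12, exact permutation p = 0.343). It was -0.20 and -0.22 within the slide rows. The probe was dim, at a median Cy5 intensity of 130 to 219.

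**Figure D2:**
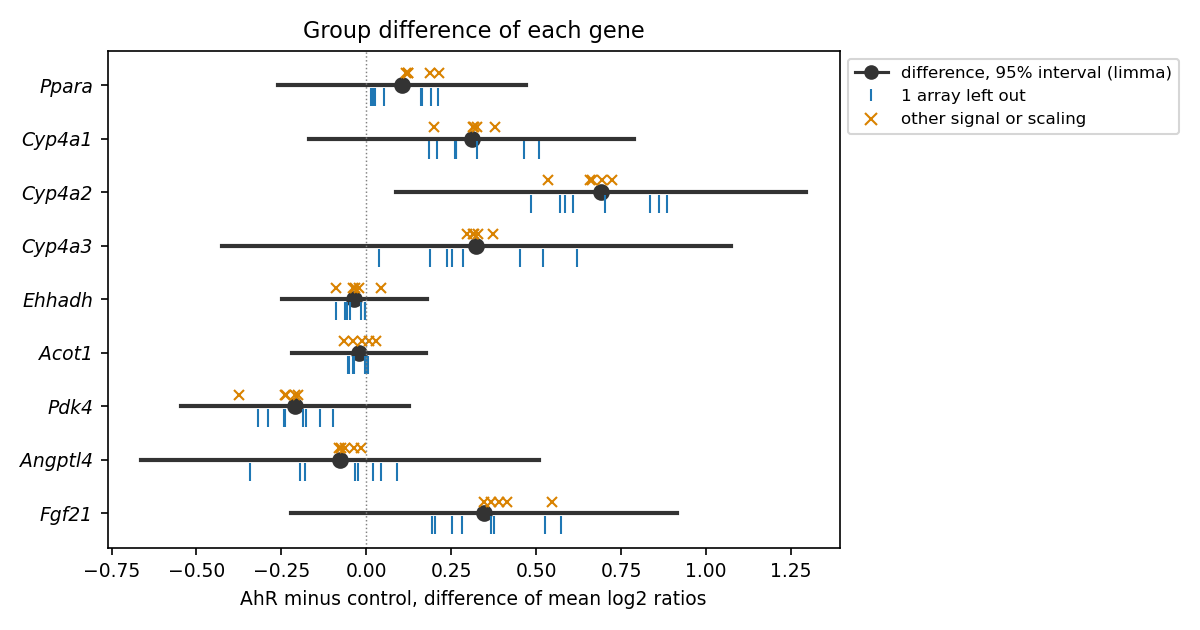
Difference of AhR minus control in log2 ratio for the 9 members, with points for the limma estimate, bars for its 95% interval, blue ticks for the value with 1 array left out and orange crosses for other signals or scalings. The interval of Cyp4a2 (0.09 to 1.30) lies above 0 before adjustment over 17855 probes, and the other 8 intervals include 0.

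The members differed widely in how much they varied between pools of the same group. The within-group SD was 0.62 for Cyp4a3, above that of 99.1% of the 10003 genes with a probe that passed the filter, whose median SD was 0.169. It was 0.49 for Cyp4a2 (98.0%), 0.48 for Angptl4 (97.8%), 0.46 for Fgf21 (97.6%) and 0.38 for Cyp4a1 (95.3%). Ppara (0.27, 85.5%) and Pdk4 (0.25, 79.8%) lay in the upper part of the genes, and Ehhadh (0.11, 16.2%) and Acot1 (0.084, 6.64%) in the lower part. The highest array exceeded the lowest by 3.19-fold for Cyp4a2, 3.02-fold for Cyp4a3, 2.46-fold for Angptl4 and 2.36-fold for Fgf21, but by 1.20-fold for Ehhadh and 1.13-fold for Acot1. Among these members, the microsomal and the fasting-linked secreted targets held the wide spreads, and Ehhadh, the 1 peroxisomal enzyme, a narrow one. This does not extend to the compartments. Acox2 of the peroxisomal list had an SD of 0.76 in control and 0.75 in AhR. Cyp4f1 of the microsomal list had 0.13 in each group. With Agilent's processed signals the percentile of Acot1 was 56.6% and that of Pdk4 92.7%, while Cyp4a3 stood at 95.8% and Ehhadh at 7.88%. Fgf21 then stood at 97.5%, Angptl4 at 91.4%, Cyp4a2 at 90.9%, Cyp4a1 at 81.4% and Ppara at 70.8%. On that signal the SD of Pdk4 (0.51) exceeded those of Angptl4 (0.48) and Cyp4a2 (0.47), so the order of the members depended on the signal. The SD over the arrays was larger for log2 Cy5 than for log2 Cy3 in each member but Acot1 (0.063 against 0.074). It was 0.440 against 0.213 for Cyp4a2, 0.486 against 0.201 for Cyp4a3 and 0.368 against 0.248 for Cyp4a1. It was 0.350 against 0.142 for Ppara, 0.394 against 0.169 for Angptl4, 0.420 against 0.172 for Fgf21, 0.243 against 0.110 for Pdk4 and 0.194 against 0.165 for Ehhadh. The share of all genes with a larger Cy5 SD was not computed, so this is not shown to be particular to the members. These channel values were not scaled between arrays.

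**Figure D3:**
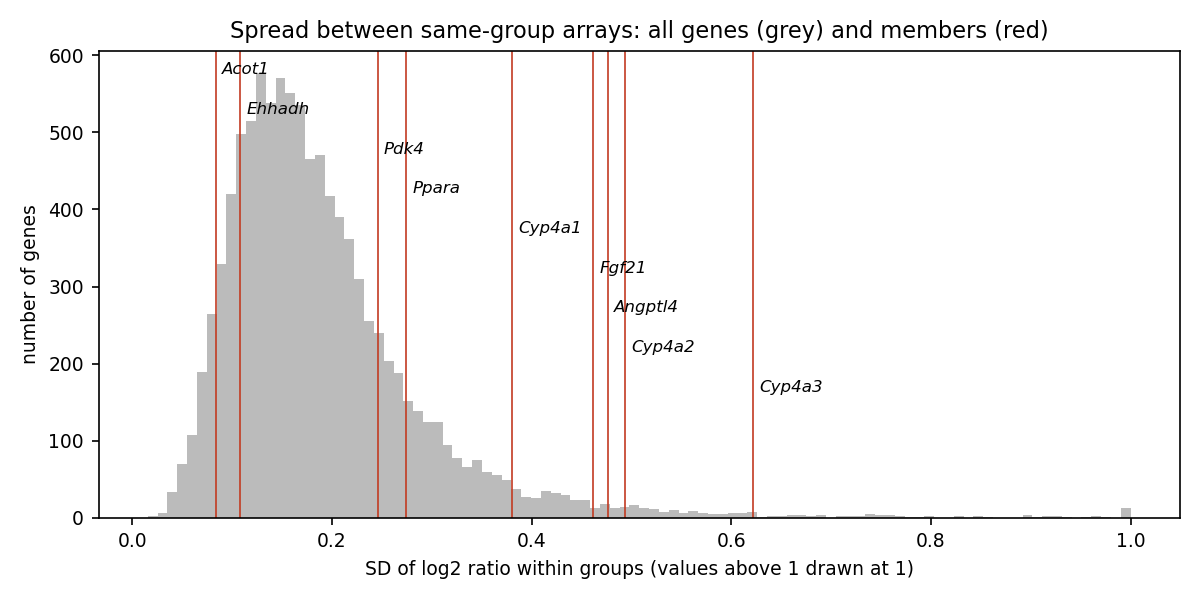
Number of genes (grey histogram, 10003 genes with a probe that passed the filter) by the within-group SD of their log2 ratio, with a red line at the SD of each member, its name to the right of the line and SDs above 1 drawn at 1. Cyp4a3, Cyp4a2, Angptl4 and Fgf21 lie above 97% of the genes, and Ehhadh and Acot1 below the median of 0.169.

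Whether the targets followed their receptor from pool to pool was examined over the 8 arrays, with both groups together. The family held 45 relations, every pair of members and each member with Dbp, a clock output gene whose probe ranged widely over these arrays, and p-values were exact permutation values adjusted over the 45. Correlations of Ppara with the oxidation targets did not pass adjustment. Pearson's r was 0.04 with Cyp4a1, 0.39 with Cyp4a2, 0.13 with Cyp4a3, 0.24 with Ehhadh and 0.34 with Acot1. Adjusted exact permutation p lay between 0.778 and 0.973. Within the control arrays alone, r ran from 0.49 (Cyp4a3) to 0.996 (Ehhadh). Within the AhR arrays alone, r ran from -0.86 (Cyp4a1) to 0.06 (Cyp4a2). Each of these rests on 4 arrays, and the difference between the groups was not tested. With 8 arrays, the r of 0.88 between Cyp4a2 and Cyp4a3 did not pass, at an adjusted exact permutation p of 0.0856. The r of -0.88 between Ppara and Pdk4 did, at an adjusted exact permutation p of 0.0268, so passing did not depend on the size of r alone. An absent call thus does not show that a target was unrelated to its receptor. Between Ppara and the fasting-linked targets r was negative, at -0.88 for Pdk4, -0.71 for Angptl4 and -0.69 for Fgf21. Of these Pdk4 passed the threshold, and the others had an adjusted exact permutation p of 0.423.

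Ppara and Pdk4 ran opposite to each other. The pair with the highest Ppara (AhR 1 and AhR 2, at 0.29 and 0.27) had the lowest Pdk4 (-0.37 and -0.26), and the 3 arrays with the lowest Ppara (control 3, AhR 3 and control 2) had the highest Pdk4 (0.25, 0.30 and 0.28). Pearson's r was -0.88 (exact permutation p = 0.000595, adjusted p = 0.0268) and Spearman's rho -0.93 (exact permutation p = 0.00223, adjusted p = 0.100). Without the 2 arrays farthest from the median of Ppara (control 3 and AhR 1), r was -0.89 (n = 6, exact permutation p = 0.00139). That is the smallest p that 6 arrays can give and comes to 0.0625 after adjustment over the 45 relations, so no lone relation could pass at this size. Without the 2 arrays farthest from the median of Pdk4, left out after the data were seen, r was -0.95 (n = 6, exact permutation p = 0.0153). With group means subtracted r was -0.90, and with processed signals -0.88. The Pdk4 probe is dim, and each slide row holds 4 arrays, too few for an r of its own.

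Cyp4a2 and Cyp4a3, whose upstream windows are the near copies printed above, ran the same way over the pools. Pearson's r was 0.88 (exact permutation p = 0.00570, adjusted p = 0.0856) and Spearman's rho 0.81 (exact permutation p = 0.0218, adjusted p = 0.327), so neither passed adjustment. Without AhR 4 and AhR 1, the arrays farthest from the median of Cyp4a2, r was 0.79 (n = 6, exact permutation p = 0.025). With group means subtracted r was 0.94.

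The Dbp probe stood at 0.32, -1.36, -1.52 and -0.42 on control arrays 1 to 4 and at 1.41, 1.22, 0.08 and -2.21 on AhR arrays 1 to 4. Dbp expression follows the hour of the day in liver, and the labels give no hour of sampling. The 3 arrays with the lowest Dbp (AhR 4, control 3 and control 2) were the 3 with the highest Angptl4. Pearson's r of Dbp with Angptl4 was -0.91 (exact permutation p = 0.00159, adjusted p = 0.0357) and Spearman's rho -0.83 (exact permutation p = 0.0154, adjusted p = 0.327). Without AhR 4 and AhR 1 r was -0.81 (n = 6, exact permutation p = 0.0639), and with group means subtracted over all 8 arrays it was -0.94. As a description, 0.315% of the 9206 genes compared had a correlation with Dbp of at least this size, against 2.73% for Pdk4 (r = -0.80, adjusted exact permutation p = 0.173) and 4.90% for Ppara (r = 0.75, adjusted exact permutation p = 0.415). For the CYP4A genes that share ran from 75.7% for Cyp4a2 to 99.3% for Cyp4a1, and for Fgf21 it was 31.6%. All arrays share a slide and a reference, and the part of sampling hour in these values was not tested.

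**Figure D4:**
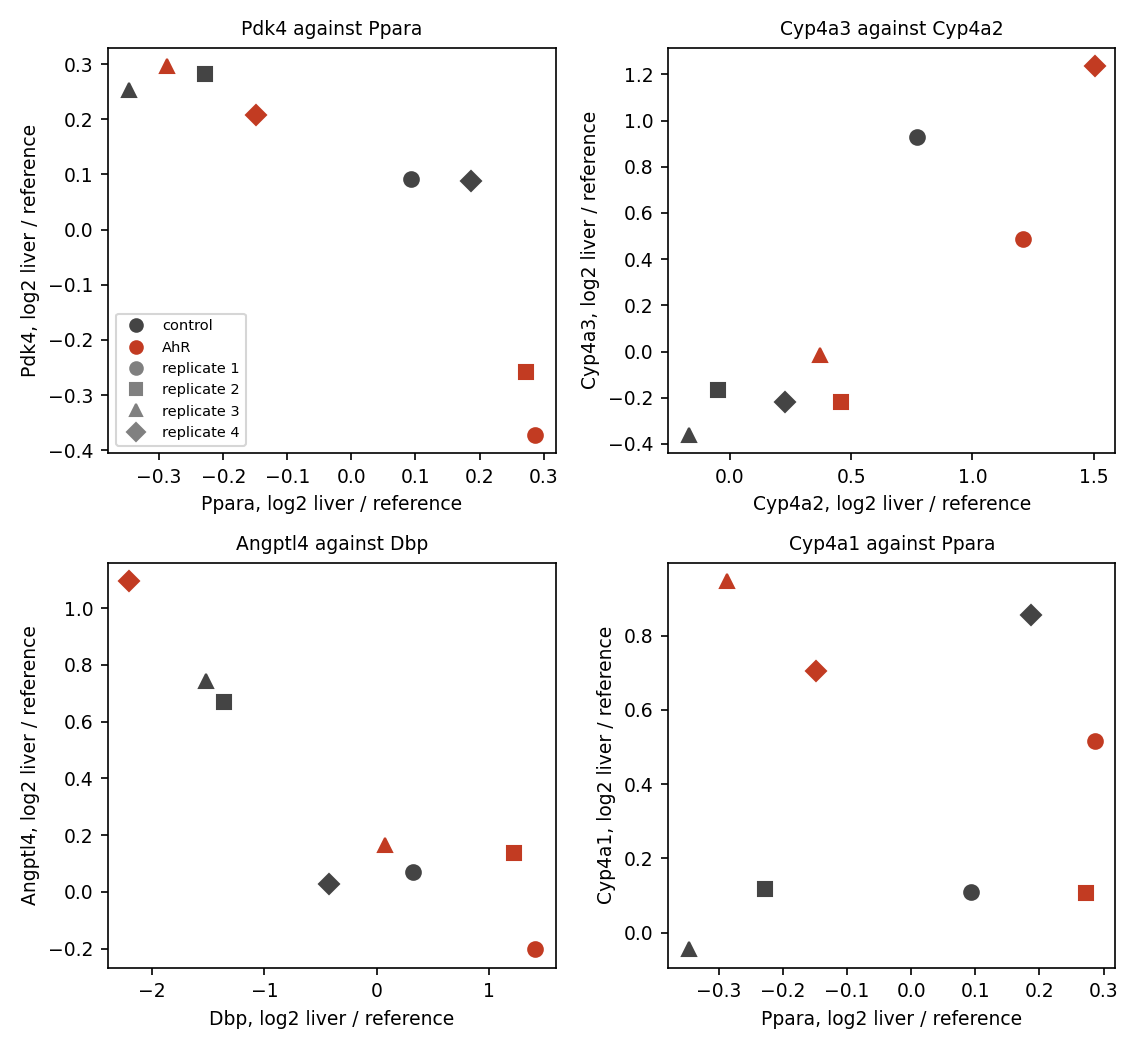
Log2 ratios of 4 pairs of genes over the 8 arrays, 1 point an array, coloured by group and shaped by replicate number: Pdk4 against Ppara, Cyp4a3 against Cyp4a2, Angptl4 against Dbp, and Cyp4a1 against Ppara. The Pdk4 and Angptl4 pairs fall along a descending line (r of -0.88 and -0.91), the Cyp4a3 pair along a rising one (r of 0.88), and the Cyp4a1 pair has a pooled r of 0.04, with control points that tend to rise and AhR points that tend to fall, 4 arrays each, a difference that was not tested.

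The genes most like each member were ranked by Pearson's r over the 8 arrays after subtraction of group means, among 9207 genes well above background on all arrays. This is a description across genes that share the same 8 arrays. Spring1 (r = 0.99), Mcpt1 (0.98) and Nkain4 (0.98) followed Ppara, and 40 genes (0.434%) exceeded an r of 0.9 with it. Fads3 (0.99), Btd (0.97) and Myom1 (0.96) followed Cyp4a2, and Myom1 (0.97) and Mylk (0.97) followed Cyp4a3, so Myom1 was on both lists. Timm13 (0.98), Noxa1 (0.97) and Dab1 (0.96) followed Cyp4a1. Celf1 (0.98), Prlh (0.97) and Smpdl3a (0.97) followed Ehhadh, and Lzic (0.96), Polr2e (0.95) and Fzd8 (0.95) followed Acot1. Gucy2e (0.98), Bdh1 (0.96), a ketone body enzyme, and Fcrla (0.96) followed Pdk4. Lrrc58 (0.98), Rbm39 (0.98) and Inhba (0.98) followed Angptl4, and Myo5a (0.99), Nectin2 (0.98) and Ier5 (0.96) followed Fgf21. For each member between 17 and 40 genes exceeded 0.9, or 0.185% to 0.434% of the genes compared. How many unrelated genes would do so over 8 arrays was not tested, so likeness here does not show a link.

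The wider pathway was read from lists of genes around the members, members included, of which none held a gene past an adjusted p of 0.05, as none of the 17855 probes did. Of the peroxisomal oxidation genes, 27 of 28 had a probe and 26 were tested, 13 higher and 13 lower in AhR, with a median difference of 0.00 beside -0.01 over all probes. Under median centring 20 were higher and 6 lower, with a median of 0.08 beside 0.04 over all probes, and without control array 1 the median was 0.07. The 3 of smallest p were Acaa1b, a peroxisomal thiolase (0.23, SE 0.11), Crot, which moves shortened chains out as carnitine esters (0.26, SE 0.13), and the peroxin Pex16 (0.28, SE 0.18). Of the 17 genes tested from the microsomal omega oxidation list, 11 were higher and 6 lower, with a median of 0.05. That median was -0.002 without control array 2, 0.01 without AhR array 3 and 0.005 without AhR array 4. The genes included Aldh3a2, the fatty aldehyde dehydrogenase (0.40, SE 0.18, unadjusted p = 0.0467 in limma), and Por, the reductase that feeds electrons to P450 enzymes (0.46, SE 0.29). The list also held Ephx2, soluble epoxide hydrolase, which is neither microsomal nor an omega oxidation enzyme (-0.39, SE 0.12, unadjusted p = 0.00793 in limma). Ephx2 was lower on every AhR array than on every control array, as 0.56% of all probes were.

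Of the 24 mitochondrial oxidation and ketogenesis genes tested, 19 were higher and 5 lower, with a median of 0.08 that ran from 0.02 to 0.15 when single arrays were left out. The carnitine palmitoyltransferases Cpt1a (0.59, SE 0.18, unadjusted p = 0.00768 in limma) and Cpt2 (0.38, SE 0.14, unadjusted p = 0.0240 in limma) had the smallest p, followed by Acads, the short-chain dehydrogenase (0.24, SE 0.12). Their groups overlapped, and the smallest p of Cpt1a did not pass adjustment. Of the 31 genes of lipid binding, uptake and droplets tested, 22 were higher and 9 lower, with a median of 0.10 (0.06 to 0.14 when single arrays were left out). Fabp4 (0.31, SE 0.13, unadjusted p = 0.0436 in limma), a fatty acid-binding protein, was higher on every AhR array than on every control array, as 0.627% of all probes were. Slc27a1, a fatty acid transporter, differed by 0.27 and Mgll, monoacylglycerol lipase, by 0.26.

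Of 10 acyl-CoA thioesterases 4 were higher and 6 lower, with a median of -0.04. Under median centring, which put the median of all probes at 0.04, it was 0.02. Acot5 had the widest difference (-0.87, SE 0.50), followed by Acot13 (-0.16) and Acot9 (-0.12). Of 20 partners and coregulators of PPARA 10 were higher and 10 lower, with a median of 0.00. They included the nuclear receptors Hnf4a (0.17) and Pparg (0.18). Of 24 fasting response genes 10 were higher and 14 lower, with a median of -0.04 (0.03 under median centring, beside that 0.04 for all probes). Cpt1a was again of smallest p there, with Sesn3 (-0.25) and the glucocorticoid-induced Tsc22d3 (-0.40).

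Of 11 genes of the FGF21 pathway 6 were higher and 5 lower, with a median of 0.11 that was -0.01 without control array 2. The FGF receptors Fgfr1 (0.15), Fgfr2 (0.17) and Fgfr4 (0.15) had the smallest p. Of 8 genes of the ANGPTL4 pathway 1 was higher and 7 lower, with a median of -0.02 (0.03 under median centring, beside 0.04 for all probes). They included the convertases Pcsk6 (-0.05) and Furin (0.02). Of 12 genes of pyruvate dehydrogenase and its kinases 5 were higher and 7 lower, with a median of -0.03 (0.03 under median centring). Mpc2 of the mitochondrial pyruvate carrier (0.14), the dehydrogenase subunit Dld (-0.14) and Pdk2, a further kinase of the complex (0.14), had the smallest p. Of 13 circadian clock genes 8 were higher and 5 lower, with a median of 0.08 that was -0.005 from Cy5 alone. Tef (0.48), a PAR bZIP factor like DBP, Bhlhe40 (0.39) and Npas2 (-0.38) had the smallest p.

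**Figure D5:**
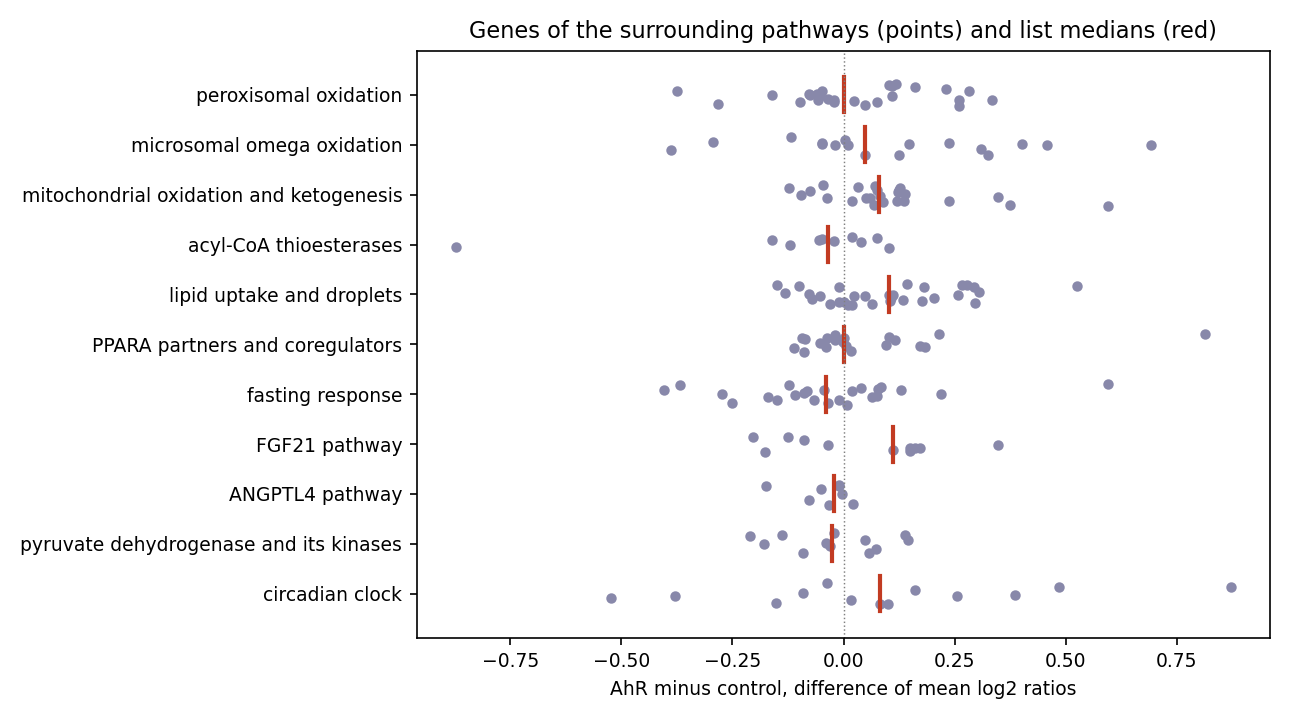
Difference of AhR minus control in log2 ratio for each tested gene of the 11 pathway lists, 1 point a gene, with the list's median as a red bar. The points of every list spread to both sides of 0, and the medians lie between -0.04 and 0.11.

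The tissue label was checked against markers. All 10 hepatocyte markers were well above background in Cy5 on all 8 arrays, with a median difference of -0.04. Their control means ran from -0.39 (Apoa1) to 0.89 (Apoa2), so the reference gave signal for them too. Their detection thus does not set the liver channel apart from the reference. Kupffer cell markers were higher in AhR for 8 of 9 (median 0.15, but -0.06 without control array 1 and 0.02 without AhR array 3). Endothelial markers were higher for 7 of 7 (median 0.13), but for 4 of 7 without control array 3 (0.01) and 5 of 7 without control array 4 (0.04), and their median was 0.03 without AhR array 3. Stellate cell markers were higher for 8 of 9 (median 0.11, 0.06 to 0.19 with single arrays left out) and cholangiocyte markers for 5 of 6 (0.11, 0.06 to 0.20). Erythroid markers were lower for 5 of 5 (median -0.34, -0.10 without control array 2 and -0.17 without AhR array 3), with a mean ratio of -0.84 to 0.30 on control and -1.39 to -0.46 on AhR arrays. Lymphocyte markers had a median of -0.01 over 4 tested. The adipocyte markers Adipoq, Lep and Retn were well above background on no array, and the 4 tested, Fabp4 among them, had a median of 0.06. Of the skeletal muscle markers Myh4 and Myh2 were well above background on no array, and the 6 tested had a median of -0.05. The 1 exocrine pancreas marker tested differed by -0.13 and the 2 kidney markers had a median of -0.04. None of these markers passed the adjusted threshold, and their part in the members' values was not tested.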

How the data were processed

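The intensity values that the authors deposited are median pixel readings of every spot and of the local background around it, and per the file headers they come from Agilent Feature Extraction 10.7.3.1. Processed signals (background subtracted and dyes balanced by the scanner software) and log10 ratios stand beside them in the deposited files, per the file headers. A deposited value table from the authors gives no scale, and comparison with the scanner readings showed log2 ratios of Cy5 over Cy3, unsubtracted and loess-adjusted (r 0.9898 to 0.9943 across probes, column medians 0.00569 to 0.0165). How its dyes were balanced is not known in detail.

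Here normexp (offset 50) and then loess within each array were applied to the medians, using limma 3.58.1 (R 4.3.3), and control spots and flagged outliers had weight 0. Of 30367 probes, 17857 had Cy5 well above background on at least 4 of 8 arrays (56.2% to 62.0% of probes per array), and 17855 could be tested. No Cy5 spot was saturated. Precision is limited by there being 4 arrays per group. RefSeq accessions named 18004 probes through the GRCr8 gene table. A gene was represented by its probe of highest mean Cy5 median intensity. Groups were compared with lmFit and eBayes, Benjamini-Hochberg adjusted over all tested probes. The median SE was 0.119. The fit was tested on simulated data. Exact permutation tests were two-sided, with a smallest possible p of 0.0286 between 4 and 4 arrays, and correlations were tested over all pairings of the arrays. The members, gene lists and tests were chosen with earlier results of these data known. Named genes were all members, the 3 of smallest p per pathway list that were no members, and the 3 most like each member. Some genes that this rule names are not reported here. Cyp4a8, Dbp and the markers were named beside them.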

Additional observations from a re-analysis of the deposited data

Results flagged for a closer look

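A single value stood apart from its group. Cyp4a3 on control array 1 was at 0.93 (log2 ratio), while the other controls lay between -0.36 and -0.17. Its gap to the nearest control was 0.850 of the group's range, above Dixon's 95% critical value for 4 samples. Over the 18 groups of 4 examined (9 members in each group), chance flags about 1 in 20. On the same array Cyp4a2 was at 0.77, the highest of the controls. The cause was not tested.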

How the results depend on the processing

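No probe passed an adjusted p of 0.05 in limma under any of the 19 alternatives, the replicate block included. The reported fit had 288 probes at an unadjusted p below 0.05. That count was 251 with the replicate block, 173 with median centring, 715 with no filter on dim probes, 819 without control array 4, 505 without AhR array 4 and 194 to 819 over all single arrays left out. The differences of Ppara (0.01 to 0.21), Cyp4a1 (0.18 to 0.51), Cyp4a2 (0.48 to 0.88), Cyp4a3 (0.04 to 0.62), Pdk4 (-0.38 to -0.10) and Fgf21 (0.19 to 0.57) kept their sign under all 19. The filter settings, replicate and slide row blocks, trend and robust eBayes and mean over probes left each member's difference unchanged. Among the 19 alternatives, only the other signals or scalings and the single arrays left out could turn a sign. The difference of Ehhadh turned to 0.042 with median centring. That of Acot1 turned to 0.0077 with Cy5 alone and 0.028 with the value table, and ran from -0.055 to 0.0046 with single arrays left out. That of Angptl4 ran from -0.34 to 0.089 with single arrays left out. The cause of these turns was not tested. The median over the members was 0.10, 0.21 with processed signals and 0.024 to 0.19 with single arrays left out. Of the 45 relations, 2 passed, and 0 without the 2 arrays farthest in x or, added after seeing the data, in y. With 6 arrays the smallest exact p comes to 0.0625 after adjustment for a lone relation, so these counts of 0 say nothing about stability. Mean pixel intensities, planned as an alternative, were not run. Acot1, Pdk4 and Fgf21 have dim probes, which limits the precision of their ratios. Replicate numbers coincide with slide columns, and deviations from the group means correlated at 0.0027, -0.062, 0.048 and -0.369 between same-numbered arrays, so the numbers were not taken to pair the samples.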
